A study of Mus musculus with 6 samples.

Results

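NF-kB is a family of dimeric transcription factors that IkB proteins hold inactive until a kinase complex marks the inhibitors for destruction. The 42 genes described here encode its subunits, the IkB inhibitors, the kinases, the adaptors that carry signals to them, and products of its target genes, several of which switch the pathway off again. They were chosen by gene symbol, and 42 of the 42 were found among the 55421 genes counted. The samples were 6 wells of wild-type (WT) mouse macrophages grown from bone marrow with M-CSF, the growth factor that drives macrophage differentiation. For 24 h, 3 wells received equal volumes of RPMI-1640 and LL-2 conditioned medium (50%), LL-2 being a mouse line of Lewis lung carcinoma, and 3 wells stayed untreated in RPMI-1640. The labels give serum, antibiotics and 20 ng/mL M-CSF for both groups.

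In macrophages the pathway is started by receptors for microbial products and cytokines. Toll-like and interleukin-1 receptors signal through Myd88 and the Irak kinases to Traf6, tumour necrosis factor receptors through Traf2, Ripk1 and the cIAP ligases, and lectin receptors through Syk, Card9, Bcl10 and Malt1. The active factor induces its own inhibitors, among them Nfkbia and Tnfaip3, so that transcripts of the feedback genes are themselves readouts that are commonly followed.

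Each library held between 28447825 and 30040682 gene counts in conditioned medium, against 24179548 to 25916709 in untreated wells, and the lowest count of any of the 42 genes in a library was 332, for Ripk2. Markers of macrophages summed to 58531 to 63180 CPM (counts scaled by library size) in conditioned medium, against 52481 to 61781 CPM in untreated wells, and none of the 10 was at 0 in any well. Lyz2 alone averaged 49293 CPM in conditioned medium and 45410 CPM in untreated wells, and of the 10 markers Csf1r, Mertk and Itgam were higher, Cd68, Adgre1, Fcgr1 and Cd63 were lower, and 3 did not pass the edgeR test. Of the 10 epithelial and carcinoma markers only Cdh1 reached 1 CPM in any well, and they summed to at most 1.67 CPM in conditioned medium and 1.40 CPM in untreated wells, with Cldn4 at 0 in all 6 wells. Wells numbered 3 stood somewhat apart: chi-square over degrees of freedom between replicates was 9.54 to 13.5 for pairs that included a well 3, against 3.66 and 3.73 for the other pairs, and no pair agreed within sampling noise. Whether the wells go back to separate animals is not in the labels, and the p-values then rest on well-to-well spread alone, possibly technical. No medium from another cell type was included for comparison, so factors of LL-2 cells, use of nutrients and dilution of fresh medium cannot be told apart, and in bulk RNA neither can fewer cells of a type and less RNA per cell.

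Of the 42 genes, 8 were higher (19.0%) and 14 lower (33.3%) in conditioned medium than in untreated wells at an adjusted p under 0.05, and 20 did not pass. The test was edgeR's quasi-likelihood test with Benjamini-Hochberg adjustment over the 13853 genes tested, as for every adjusted p given here unless another fit is named. Over all tested genes 27.9% were called, 12.6% higher and 15.2% lower. Among the 7454 genes with a mean level at least that of Ripk2, the lowest of the 42 at 14.3 CPM, 36.9% were called, 17.1% higher and 19.8% lower. Changes were mostly small: the median log2 fold change of the 42 was -0.09, beside 0.01 over all tested genes, and the median size was 0.17 for the 42 and 0.17 over all. A change beyond 1.5-fold by edgeR's glmTreat was called for 4 of the 42 (9.52%), against 3.49% of all tested genes (1.24% higher and 2.25% lower). These were Ier3, which was higher, and Irak2, Tnip3 and Malt1, which were lower. The values of the groups did not overlap for 28 of the 42 (66.7%), 11 higher and 17 lower. Over all tested genes the share was 42.8%, with 21.2% higher and 21.6% lower. The shares of all genes beyond 1.5-fold and without overlap were not matched for level.

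Leaving out single libraries moved some of these counts by more than 1.5 times. Without untreated well 1, 5 of the 42 were called higher, beside 1271 of all genes. Without untreated well 2, 2 of the 42 were called beyond 1.5-fold, and 1146 of all genes were higher, against 1749 with all wells. Without conditioned-medium well 1, 1160 of all genes were higher. Of the 4 calls beyond 1.5-fold, those of Ier3 and Irak2 were kept in every edgeR fit run, while those of Malt1 (adjusted p = 0.0714) and Tnip3 (0.0529) were lost without scaling beyond the total count. Without both wells numbered 3, 8 of the 42 were higher, 16 lower and 5 beyond 1.5-fold, beside 1871 higher and 2209 lower of all genes. Markers of some other cells also moved between the groups: of 10 dendritic cell markers, 5 of 9 tested were lower and none rose, none was at 0 in any well, and their sum was 14.3 to 20.9 CPM in conditioned medium, against 26.6 to 37.4 CPM in untreated wells. Of 8 mast cell and basophil markers, 6 of 6 tested were lower, Tpsb2 was at 0 in the 3 conditioned-medium wells and in untreated well 1, Fcer1a was at 0 in conditioned-medium well 1, and their sum was 6.64 to 13.3 CPM in conditioned medium, against 20.4 to 29.3 CPM in untreated wells. Of 10 neutrophil markers, Retnlg and Cxcr2 were higher, Camp and Ltf lower and 6 did not pass (6 higher and 3 lower with the replicate block), and their sum was 509 to 601 CPM in conditioned medium, against 419 to 619 CPM in untreated wells. Of 10 fibroblast and endothelial markers, 9 were tested: Pecam1 and Cdh5 were higher, Kdr was lower and 6 did not pass (6 higher and 1 lower with the block). The sum of these 10 was 59.9 to 135 CPM in conditioned medium, against 61.4 to 104 CPM in untreated wells, and Lum was at 0 in untreated well 2. Of 12 T, NK and B cell markers 8 were tested and Ms4a1 alone passed, being lower (1 higher and 1 lower with the block). Cd4 made up most of their sum, averaging 163 CPM in conditioned medium and 138 CPM in untreated wells. The T cell markers Cd3e, Cd3d and Cd8a averaged at most 0.151 CPM in either group. The part of these other cells in the changes of the 42 genes was not tested.

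**Figure D1:**
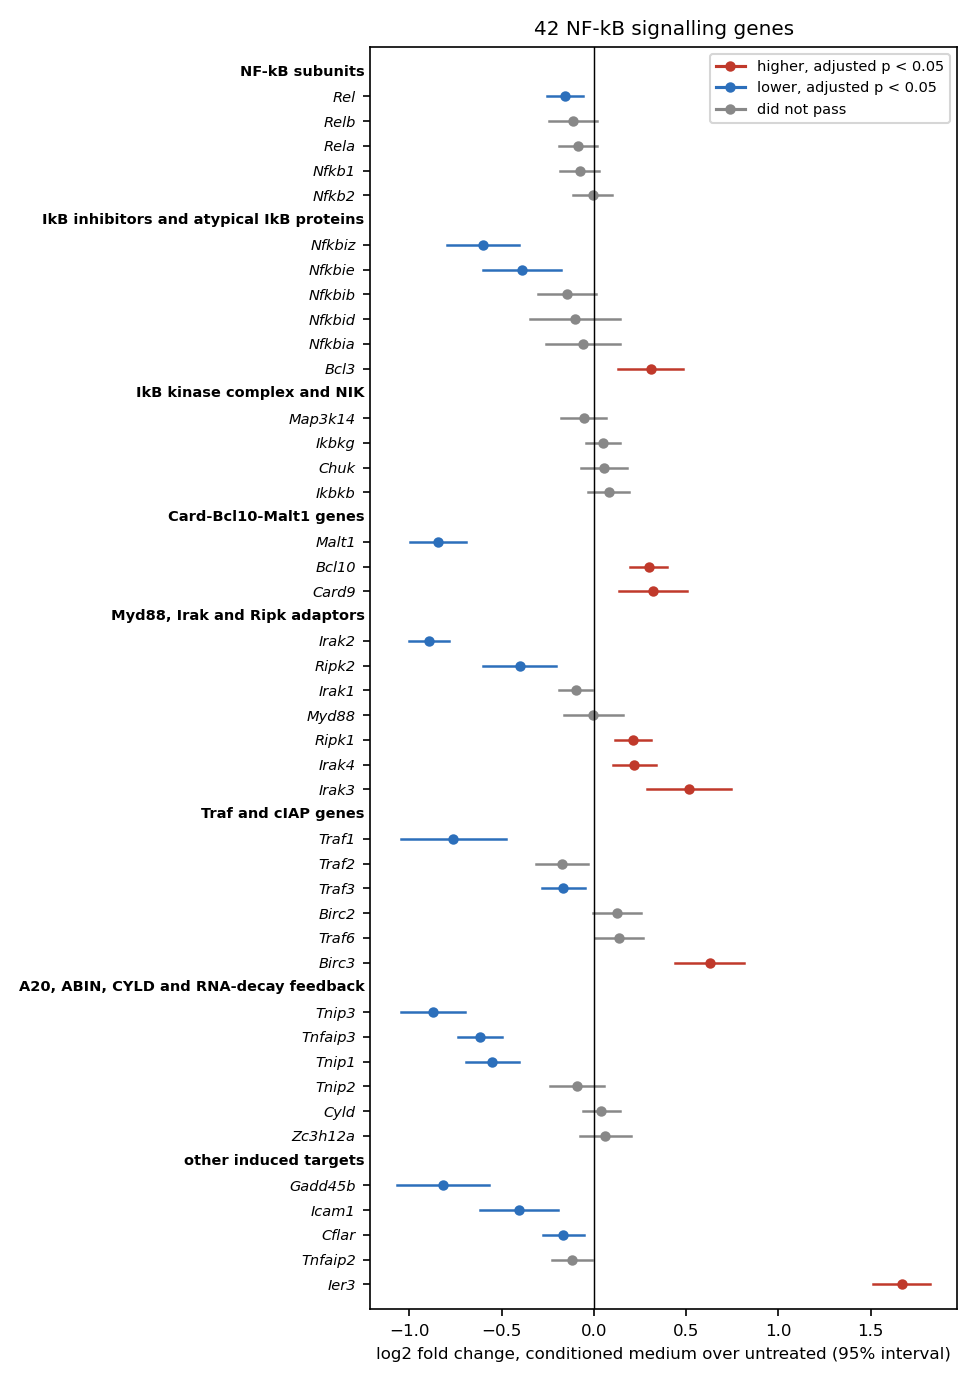
Log2 fold change of each of the 42 genes, conditioned medium over untreated (x axis), with its 95% interval, grouped by role (3 wells per group). Red points were higher, blue lower, and grey did not pass at an adjusted p of 0.05; Ier3 stands furthest right at 1.67, and Irak2, Tnip3 and Malt1 furthest left at -0.89, -0.87 and -0.84.

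Promoter sequence was compared because many of the 42 are known NF-kB targets. A choice that includes such targets favours a high share of the kB binding motif. The comparison with all genes therefore describes the list and is not independent evidence about it. RefSeq promoter windows (GRCm38.p6) were matched for 36 of the 42 genes, and the 250 bases before each start were searched on both strands, overlapping matches included. A match to the kB consensus was present in 14 of the 36 genes (38.9%), against 2225 of 27025 genes with a window (8.23%). A looser pattern of 3 G, any 5 bases and 2 C, of which the kB consensus is a stricter form, was in 34 of 48 windows (70.8%), against 45.8% of all windows. By response, the consensus was in 2 of 8 higher genes, 6 of 11 lower genes and 6 of 17 genes that did not pass. The match was therefore found among genes of every response, and as a string match it says nothing of binding in these cells.

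To show the motif beside different responses, 4 windows were chosen after the matches were seen. Nfkbia (chr12:55492648-55492897, minus strand) did not pass the test, Tnfaip3 (chr10:19015411-19015660, minus strand) and Tnip3 (chr6:65590148-65590397, plus strand) fell, and Ier3 (chr17:35821463-35821712, plus strand) rose. Each sequence is the 250 bases before the RefSeq start, read 5′ to 3′ on the gene's strand, with stretches that match the kB consensus on either strand in capitals.
Nfkbia: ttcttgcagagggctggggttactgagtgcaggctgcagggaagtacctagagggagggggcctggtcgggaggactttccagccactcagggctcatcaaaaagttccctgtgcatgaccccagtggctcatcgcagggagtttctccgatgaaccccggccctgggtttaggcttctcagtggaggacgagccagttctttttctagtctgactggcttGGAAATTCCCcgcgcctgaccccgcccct
Tnfaip3: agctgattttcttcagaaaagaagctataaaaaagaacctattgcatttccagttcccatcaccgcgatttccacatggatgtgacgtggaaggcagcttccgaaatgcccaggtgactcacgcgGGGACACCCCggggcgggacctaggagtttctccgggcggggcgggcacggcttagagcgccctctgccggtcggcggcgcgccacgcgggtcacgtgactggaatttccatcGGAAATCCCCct
Tnip3: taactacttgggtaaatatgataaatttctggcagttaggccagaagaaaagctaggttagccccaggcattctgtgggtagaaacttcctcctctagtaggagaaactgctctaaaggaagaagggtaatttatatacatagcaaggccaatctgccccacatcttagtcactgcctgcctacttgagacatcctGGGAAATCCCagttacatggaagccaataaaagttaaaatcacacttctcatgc
Ier3: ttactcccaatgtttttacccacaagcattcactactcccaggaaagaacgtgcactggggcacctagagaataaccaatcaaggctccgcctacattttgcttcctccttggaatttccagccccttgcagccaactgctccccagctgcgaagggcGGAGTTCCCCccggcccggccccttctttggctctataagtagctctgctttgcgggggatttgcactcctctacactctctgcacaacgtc
In Nfkbia, which encodes the inhibitor IkB-alpha, the capitals begin 29 bases before the start. Tnfaip3 has 2 stretches, beginning 125 and 12 bases before it, and the other window of Tnfaip3 held no match. The stretch of Tnip3 begins 54 bases before its start, and that of Ier3 92 bases before. The windows of Tnip3 (wholly), Tnfaip3 (mostly) and Ier3 (partly) lie inside the gene spans used for counting.

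The DNA-binding subunits differed little between the groups. Of the 5, only Rel passed the test: it averaged 56.6 ± 0.55 CPM in conditioned medium and 63.05 ± 1.96 CPM in untreated wells (SD, n = 3 each), a log2 fold change of -0.16 (SE 0.04, edgeR adjusted p = 0.0258). That call was lost when conditioned-medium well 1 or 2 or untreated well 1 or 2 was left out (adjusted p 0.0675 to 0.104), under DESeq2 (0.0575), without a filter on low counts (0.118), and without scaling beyond the total count (0.145). Nfkb1, precursor of a subunit without a transactivation domain, averaged 181 ± 6.95 CPM in conditioned medium and 191 ± 6.91 CPM in untreated wells. Nfkb2, its relative in the non-canonical pathway, averaged 131 ± 4.32 CPM in conditioned medium and 131 ± 5.06 CPM in untreated wells. On the opposite strand, exons of Nfkb2 share 299 bases with Psd, at 14.8 CPM, and 531 with AC114539.1, at 12.8 CPM. Rela, the main transactivating subunit, averaged 98.4 ± 2.22 CPM in conditioned medium and 104 ± 4.61 CPM in untreated wells. Relb, the partner of Nfkb2, averaged 60.04 ± 4.19 CPM in conditioned medium and 64.9 ± 2.29 CPM in untreated wells. Relb did not pass (edgeR adjusted p = 0.19), but was called lower in 1 fit that left out a single library and in 1 other alternative. The ranges of the groups overlapped for each of these 4 genes.

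On a scale of CPM per kilobase, which allows genes of different length to be compared, Rela made up 32.5 ± 0.60% of the 5 subunits in conditioned medium and 32.8 ± 0.68% in untreated wells (SD, n = 3 each). Rel, the smallest share, was 7.70 ± 0.19% in conditioned medium and 8.16 ± 0.39% in untreated wells. The mix of subunit transcripts was thus nearly the same in the 6 wells.

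Among the 6 IkB genes, 1 rose, 2 fell and 3 did not pass. Nfkbiz, an atypical nuclear IkB that is needed for a set of secondary response genes, had 50.4, 48.1 and 58.3 CPM in conditioned medium, against 71.1, 80.3 and 86.4 CPM in untreated wells. Its highest conditioned-medium well lay below its lowest untreated well, and the log2 fold change was -0.60 (SE 0.09, edgeR adjusted p = 0.000829). Nfkbie, the inhibitor IkB-epsilon, had 35.7, 36.6 and 43.9 CPM in conditioned medium, against 45.2, 51.6 and 55.4 CPM in untreated wells. Conditioned-medium well 3 was the highest of its group and came close to untreated well 1, without overlap (log2 fold change -0.39, SE 0.09, edgeR adjusted p = 0.0129). The adjusted p of Nfkbie was 0.0525 without conditioned-medium well 1 and 0.0512 without untreated well 2.

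Bcl3, a nuclear IkB protein that binds dimers lacking a transactivation domain, had 48.0, 49.8 and 58.4 CPM in conditioned medium, against 40.9, 40.5 and 44.7 CPM in untreated wells. The 3 conditioned-medium wells were above the 3 untreated ones (log2 fold change 0.31, SE 0.08, edgeR adjusted p = 0.0162), and the adjusted p was 0.0612 without untreated well 1 and 0.0704 without untreated well 2. Nfkbia, the classical rapidly induced inhibitor, averaged 142 ± 15.9 CPM in conditioned medium and 148 ± 14.3 CPM in untreated wells, and its fold change of 0.960 had a 95% interval of 0.837 to 1.10. Nfkbib, the inhibitor IkB-beta, averaged 29.8 ± 1.83 CPM in conditioned medium and 32.9 ± 2.36 CPM in untreated wells. Nfkbid, a nuclear IkB of lower level, averaged 14.6 ± 1.57 CPM in conditioned medium and 15.6 ± 1.80 CPM in untreated wells. The ranges overlapped for Nfkbia, Nfkbib and Nfkbid. Exons of Nfkbib share 42 bases with Sirt2 on the opposite strand, and those reads cannot be told apart without strand.

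Per kilobase, Bcl3 made up 13.8 ± 0.15% of the 6 IkB genes in conditioned medium and 10.4 ± 0.23% in untreated wells. Nfkbiz was 6.83 ± 0.22% in conditioned medium and 9.66 ± 0.52% in untreated wells. Nfkbia was the largest share in both groups, at 57.9 ± 0.54% in conditioned medium and 56.3 ± 1.74% in untreated wells.

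None of the 4 genes for the IkB kinase complex and NIK passed the test in either direction. Chuk, the kinase subunit IKK-alpha, averaged 49.6 ± 2.94 CPM in conditioned medium and 47.8 ± 1.44 CPM in untreated wells. Ikbkb, the kinase subunit IKK-beta, averaged 118 ± 5.05 CPM in conditioned medium and 111 ± 4.56 CPM in untreated wells. Ikbkg, the regulatory subunit NEMO, averaged 59.4 ± 1.16 CPM in conditioned medium and 57.4 ± 0.31 CPM in untreated wells, and 418 of its exon bases are shared with G6pdx on the opposite strand. Map3k14, the non-canonical kinase NIK, averaged 29.3 ± 0.29 CPM in conditioned medium and 30.5 ± 1.44 CPM in untreated wells. Their log2 fold changes lay between -0.05 and 0.08.

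The 3 genes of the Card-Bcl10-Malt1 complex moved in different directions. Malt1 (ENSMUSG00000032688), the complex's paracaspase, which also cleaves several regulators of the pathway, had 32.6, 32.6 and 29.6 CPM in conditioned medium, against 59.8, 58.8 and 51.8 CPM in untreated wells. The groups lay far apart, with a log2 fold change of -0.84 (SE 0.07, edgeR adjusted p = 2.78e-05) and an adjusted p of 0.0154 for a change beyond 1.5-fold. That last call was lost without untreated well 1 (0.0658) or 2 (0.0737) and without scaling beyond the total count (0.0714). Bcl10, the adaptor that forms filaments with Malt1, had 112, 105 and 109 CPM in conditioned medium, against 89.5, 85.1 and 90.6 CPM in untreated wells. The 3 conditioned-medium wells were the higher ones (log2 fold change 0.30, SE 0.04, edgeR adjusted p = 0.00108). Card9, the myeloid scaffold that links Syk to Bcl10, had 57.7, 53.2 and 65.1 CPM in conditioned medium, against 43.4, 46.9 and 50.7 CPM in untreated wells. These ranges did not overlap (log2 fold change 0.32, SE 0.08, edgeR adjusted p = 0.0172), but the adjusted p was 0.0685 without untreated well 1 and 0.0611 without untreated well 2.

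Per kilobase, Malt1 was the least abundant of the 42 genes over both groups, at 1.75 ± 0.10 CPM per kilobase in conditioned medium and 3.15 ± 0.24 in untreated wells. This rank rests on the gene length deposited with the counts, 18040 bases for Malt1, and the transcripts in these cells may be shorter. By CPM the lowest of the 42 was Ripk2, while Malt1 averaged 31.6 CPM in conditioned medium and 56.8 CPM in untreated wells. Of the summed level per kilobase of Card9, Bcl10 and Malt1, Malt1 made up 3.44 ± 0.36% in conditioned medium and 7.34 ± 0.82% in untreated wells, with the same limit.

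Genes that lie before this complex were read from a list of 62 upstream pathway genes outside the 42. Of the 62, 8 were higher, 14 lower and 40 did not pass. Over all tested genes 12.6% were higher and 15.2% lower. Among genes with a mean level at least that of Ripk2, 17.1% were higher and 19.8% lower. Clec4n, the fungal mannan receptor Dectin-2, had 378, 379 and 340.1 CPM in conditioned medium, against 73.6, 75.8 and 88.4 CPM in untreated wells (log2 fold change 2.21, SE 0.08, edgeR adjusted p = 2.85e-07). Clec7a, the beta-glucan receptor Dectin-1, had 170, 197 and 116 CPM in conditioned medium, against 462, 484 and 334 CPM in untreated wells. Well 3 was the lowest of each group for Clec7a, and the groups did not overlap (log2 fold change -1.41, SE 0.19, edgeR adjusted p = 0.000555).

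4 further genes of the lectin branch were chosen after their values were seen, to complete it. Clec4d, a partner of Dectin-2, averaged 622 ± 6.53 CPM in conditioned medium and 381 ± 41.98 CPM in untreated wells (log2 fold change 0.71, edgeR adjusted p = 9.91e-05). Clec4e, the receptor Mincle, averaged 178 ± 31.5 CPM in conditioned medium and 295 ± 52.5 CPM in untreated wells (log2 fold change -0.73, edgeR adjusted p = 0.00397). Fcer1g, the signalling chain that Dectin-2 and Mincle share, averaged 839 ± 21.1 CPM in conditioned medium and 1029 ± 43.5 CPM in untreated wells (log2 fold change -0.29, edgeR adjusted p = 0.00156). Syk, the kinase that all of them use, averaged 686 ± 11.0 CPM in conditioned medium and 692 ± 7.06 CPM in untreated wells, and did not pass. Both the receptors given here and the Card-Bcl10-Malt1 genes thus included higher and lower transcripts.

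**Figure D2:**
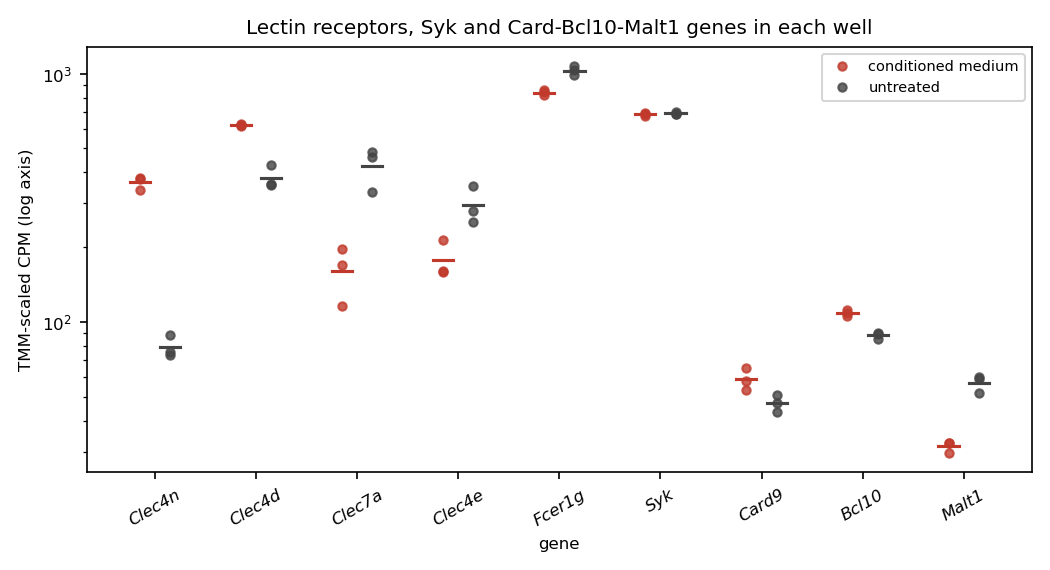
TMM-scaled CPM (log axis) of lectin receptors, Fcer1g, Syk and Card-Bcl10-Malt1 genes; each point is a well, and bars are the means of 3 wells, red for conditioned medium and dark grey for untreated. Clec4n, Clec4d, Card9 and Bcl10 were higher in conditioned medium, Clec7a, Clec4e, Fcer1g and Malt1 were lower, and Syk, at 686 and 692 CPM, did not pass.

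In the group of Myd88, Irak and Ripk genes, 3 rose, 2 fell and 2 did not pass. Irak2 (ENSMUSG00000060477, chr6:113638467-113695026, GRCm38), a kinase-like protein that sustains Toll-like receptor signalling, had 42.4, 42.8 and 45.6 CPM in conditioned medium, against 79.0, 80.5 and 83.7 CPM in untreated wells. Both groups were tight and far apart (log2 fold change -0.89, SE 0.05, edgeR adjusted p = 2.5e-06), and the adjusted p for a change beyond 1.5-fold was 0.000851. Irak3, known as IRAK-M, which restrains the same signal in macrophages, had 137, 134 and 165 CPM in conditioned medium, against 88.4, 103 and 114 CPM in untreated wells. The lowest conditioned-medium well of Irak3 was above its highest untreated well (log2 fold change 0.51, SE 0.10, edgeR adjusted p = 0.00456). Irak3 shares 192 exon bases with Tmbim4 on the opposite strand, which averaged 64.3 CPM.

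Irak4, the first kinase recruited by Myd88, had 78.7, 73.2 and 71.0 CPM in conditioned medium, against 61.4, 64.8 and 65.4 CPM in untreated wells. The groups did not overlap (log2 fold change 0.22, SE 0.05, edgeR adjusted p = 0.0123), and the adjusted p was 0.0583 without conditioned-medium well 1 and 0.0546 without untreated well 1. Irak4 shares 395 exon bases with Twf1 on the opposite strand. Ripk1, the kinase scaffold below tumour necrosis factor receptors, had 123, 118 and 114 CPM in conditioned medium, against 105, 101 and 101 CPM in untreated wells. All 3 conditioned-medium wells were above the untreated ones (log2 fold change 0.21, SE 0.04, edgeR adjusted p = 0.00574), but 241 exon bases are shared with Serpinb6a, which averaged 403 CPM. Ripk2, the kinase adaptor of the NOD receptors, had 13.4, 10.9 and 12.6 CPM in conditioned medium, against 16.6, 16.3 and 16.0 CPM in untreated wells. The untreated wells were close together and all above the conditioned-medium ones (log2 fold change -0.40, SE 0.09, edgeR adjusted p = 0.00797).

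Myd88, the adaptor itself, averaged 96.6 ± 4.16 CPM in conditioned medium and 96.8 ± 9.90 CPM in untreated wells, and shares 290 exon bases with Acaa1a. Irak1, the kinase that Irak4 activates, averaged 100.4 ± 1.85 CPM in conditioned medium and 108 ± 2.14 CPM in untreated wells; its groups did not overlap, but it did not pass (edgeR adjusted p = 0.102). Per kilobase, Irak3 made up 46.2 ± 3.10% of the 4 Irak genes in conditioned medium and 33.8 ± 2.28% in untreated wells. Irak2 made up 11.6 ± 0.18% in conditioned medium and 22.6 ± 0.75% in untreated wells.

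**Figure D3:**
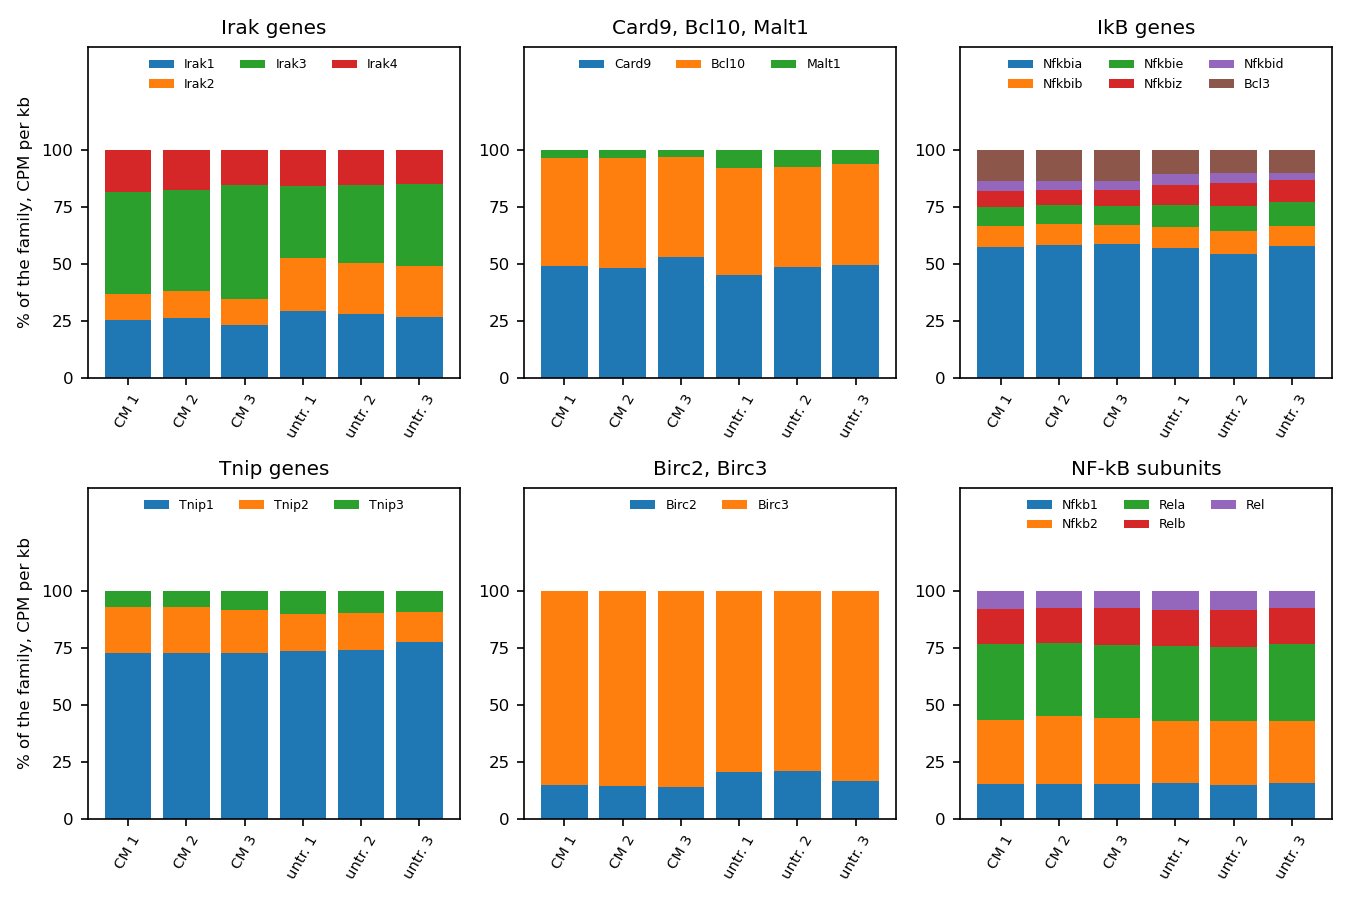
Share of each gene in the summed level of its family (CPM per kilobase, %), for each well (CM, conditioned medium; untr., untreated). Irak2 fills on average 11.6% of the Irak bars in conditioned medium and 22.6% in untreated wells, and Malt1 3.44% in conditioned medium and 7.34% in untreated wells, while the NF-kB subunits keep nearly the same shares.

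Of the 6 Traf and cIAP genes, 1 rose, 2 fell and 3 did not pass. Birc3, the inducible ubiquitin ligase cIAP2, had 180.3, 179 and 200.2 CPM in conditioned medium, against 112, 112 and 138 CPM in untreated wells. Well 3 was the highest of each group, and the groups did not overlap (log2 fold change 0.63, SE 0.08, edgeR adjusted p = 0.000503). Birc2, its paralogue cIAP1, averaged 28.4 ± 0.61 CPM in conditioned medium and 26.0 ± 1.42 CPM in untreated wells without passing the test. Per kilobase Birc3 was 85.7 ± 0.52% of the pair in conditioned medium and 80.7 ± 2.56% in untreated wells.

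Traf1, an inducible Traf that lacks the ring domain of its relatives, had 16.5, 14.2 and 19.0 CPM in conditioned medium, against 24.8, 26.5 and 32.8 CPM in untreated wells. Its groups were apart (log2 fold change -0.76, SE 0.13, edgeR adjusted p = 0.00184). Traf3, which holds NIK at a low level, had 46.9, 45.3 and 50.4 CPM in conditioned medium, against 52.6, 54.3 and 53.05 CPM in untreated wells. The difference in Traf3 was small (log2 fold change -0.17, SE 0.05, edgeR adjusted p = 0.04). Its call was lost when any well except conditioned-medium well 3 was left out (adjusted p 0.0702 to 0.129), under DESeq2 (0.0744), without a filter on low counts (0.109) and without scaling beyond the total count (0.159).

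Traf2, the adaptor of tumour necrosis factor receptors, averaged 29.3 ± 0.75 CPM in conditioned medium and 33.0 ± 2.36 CPM in untreated wells. It did not pass (edgeR adjusted p = 0.0716), but passed with the replicate number as a block (adjusted p = 0.0279). Traf6, the ubiquitin ligase below the Irak kinases, averaged 34.4 ± 0.62 CPM in conditioned medium and 31.3 ± 1.94 CPM in untreated wells. It did not pass (edgeR adjusted p = 0.115), while without scaling beyond the total count the adjusted p was 0.0222. The 2 groups did not overlap for either gene.

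The feedback genes of the A20 and ABIN families included 3 that fell, none that rose and 3 that did not pass. Tnfaip3 (ENSMUSG00000019850, chr10:19000910-19015657, GRCm38), which encodes the ubiquitin-editing enzyme A20, had 62.4, 67.6 and 63.5 CPM in conditioned medium, against 101, 102 and 93.3 CPM in untreated wells. All conditioned-medium wells lay well below the untreated ones (log2 fold change -0.62, SE 0.05, edgeR adjusted p = 3.74e-05). Tnip1, or ABIN-1, a ubiquitin-binding partner of A20, had 109.6, 111 and 117 CPM in conditioned medium, against 153, 161 and 181 CPM in untreated wells. There was no overlap (log2 fold change -0.55, SE 0.06, edgeR adjusted p = 0.000239). Tnip3 (ENSMUSG00000044162, chr6:65525313-65634040, GRCm38), or ABIN-3, had 34.1, 33.9 and 41.7 CPM in conditioned medium, against 66.2, 67.2 and 67.6 CPM in untreated wells. The untreated wells of Tnip3 were nearly equal, and the highest conditioned-medium well was far below them (log2 fold change -0.87, SE 0.08, edgeR adjusted p = 4.31e-05). Its adjusted p for a change beyond 1.5-fold was 0.0167, which became 0.0798 without conditioned-medium well 1, 0.0637 without conditioned-medium well 2, 0.0619 without untreated well 2 and 0.0529 without scaling beyond the total count.

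Tnip2, or ABIN-2, averaged 23.4 ± 0.23 CPM in conditioned medium and 24.9 ± 1.81 CPM in untreated wells. Cyld, the deubiquitinase that removes linear and lysine-linked chains from the pathway's adaptors, averaged 68.0 ± 1.82 CPM in conditioned medium and 66.05 ± 1.68 CPM in untreated wells. Zc3h12a, the ribonuclease Regnase that degrades inflammatory transcripts, averaged 51.5 ± 4.25 CPM in conditioned medium and 49.4 ± 1.06 CPM in untreated wells. None of these 3 passed, and their ranges overlapped. A20 and its partners ABIN-1 and ABIN-3 thus fell while ABIN-2, Cyld and Regnase did not pass, and the difference between these genes was not itself tested.

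**Figure D4:**
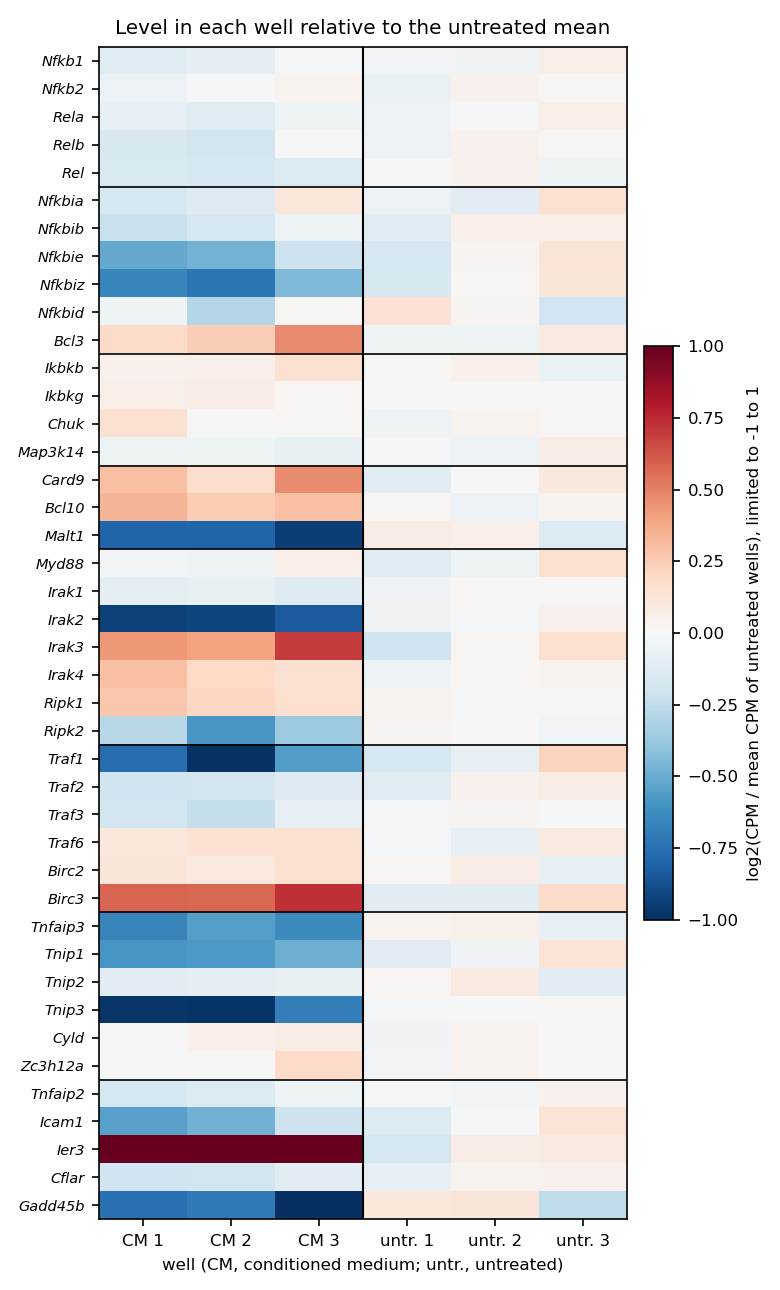
Level of each of the 42 genes in each well as log2 of CPM over the mean CPM of the untreated wells, with colours limited to -1 and 1 (CM, conditioned medium; untr., untreated; black lines separate the roles). Tnfaip3, Tnip1, Tnip3, Irak2, Malt1 and Gadd45b are blue in all 3 conditioned-medium wells, Ier3, Birc3 and Irak3 are red in all 3, and the subunits and kinases stay pale.

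Among the other induced targets, Ier3 changed furthest of the 42 genes. Ier3 (ENSMUSG00000003541, chr17:35821684-35822923, GRCm38) is an immediate early gene that acts on cell survival and also answers to other pathways. It had 72.7, 70.3 and 72.6 CPM in conditioned medium, against 20.0, 23.8 and 24.0 CPM in untreated wells. The level was 3.18-fold higher (95% interval 2.86 to 3.54, edgeR adjusted p = 6.85e-07), with tight values in both groups.

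Gadd45b, a stress-inducible gene whose product restrains a kinase of the JNK pathway, had 49.3, 50.4 and 40.5 CPM in conditioned medium, against 88.8, 89.6 and 69.2 CPM in untreated wells. Well 3 was the lowest of each group, and the groups did not overlap (log2 fold change -0.82, SE 0.11, edgeR adjusted p = 0.000562). The adjusted p of Gadd45b for a change beyond 1.5-fold was 0.163, and 0.000353 with the replicate block. Icam1, the adhesion molecule that leukocyte integrins bind, had 116, 121 and 146 CPM in conditioned medium, against 153, 167 and 185 CPM in untreated wells. For Icam1 conditioned-medium well 3 came nearest to the untreated range without reaching it (log2 fold change -0.40, SE 0.09, edgeR adjusted p = 0.0105).

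Cflar, cFLIP, which blocks caspase activation at death receptors, averaged 169 ± 5.31 CPM in conditioned medium and 189 ± 9.30 CPM in untreated wells (log2 fold change -0.17, SE 0.05, edgeR adjusted p = 0.0338). The call on Cflar was lost without conditioned-medium well 1 or 2 or untreated well 2 or 3 (adjusted p 0.0755 to 0.126), without a filter on low counts (0.0645) and without scaling beyond the total count (0.111). Tnfaip2, induced by tumour necrosis factor and the most abundant of the 42 per kilobase, averaged 639 ± 30.5 CPM in conditioned medium and 693 ± 19.6 CPM in untreated wells. It did not pass (edgeR adjusted p = 0.105), but passed with the replicate number as a block (adjusted p = 0.0243). Over the 20 genes that did not pass, the 95% intervals of the fold change ran from 0.787 at the lowest, for Nfkbid, to 1.202 at the highest, for Traf6.

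Other known target genes were read from a list of 35 cytokines, enzymes and survival genes outside the 42, of which 31 could be tested. Of these, 6 rose, 15 fell and 10 did not pass, and 5 rose and 10 fell beyond 1.5-fold. Their median log2 fold change was -0.64. Over all tested genes 12.6% rose and 15.2% fell, 1.24% rose and 2.25% fell beyond 1.5-fold, and the median was 0.01. Il1b, the precursor of interleukin-1 beta, had 17.7, 15.7 and 20.5 CPM in conditioned medium, against 4.31, 5.45 and 4.29 CPM in untreated wells. The groups were far apart (log2 fold change 1.94, SE 0.13, edgeR adjusted p = 1.08e-05). Ccl5, a chemokine for T cells and monocytes, had 16.3, 13.5 and 20.0 CPM in conditioned medium, against 47.5, 48.5 and 77.1 CPM in untreated wells. Untreated well 3 was the highest, and there was no overlap (log2 fold change -1.80, SE 0.20, edgeR adjusted p = 0.000186).

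Ccnd1, the cell cycle gene cyclin D1, had 7.94, 6.96 and 6.54 CPM in conditioned medium, against 36.5, 41.0 and 33.0 CPM in untreated wells (log2 fold change -2.36, SE 0.10, edgeR adjusted p = 8.66e-07). It shares 1100 exon bases with LTO1 on the opposite strand, so its level is uncertain. Tnf and Vcam1 were chosen after their values were seen, as a cytokine that starts the pathway and an adhesion molecule to set beside Icam1. Tnf averaged 9.12 ± 1.85 CPM in conditioned medium and 29.2 ± 3.35 CPM in untreated wells (log2 fold change -1.68, SE 0.14, edgeR adjusted p = 2.78e-05). Vcam1 averaged 75.6 ± 2.49 CPM in conditioned medium and 30.3 ± 0.60 CPM in untreated wells (log2 fold change 1.32, SE 0.05, edgeR adjusted p = 3.14e-07). Known targets therefore went in both directions, inside and outside the 42 genes.

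**Figure D5:**
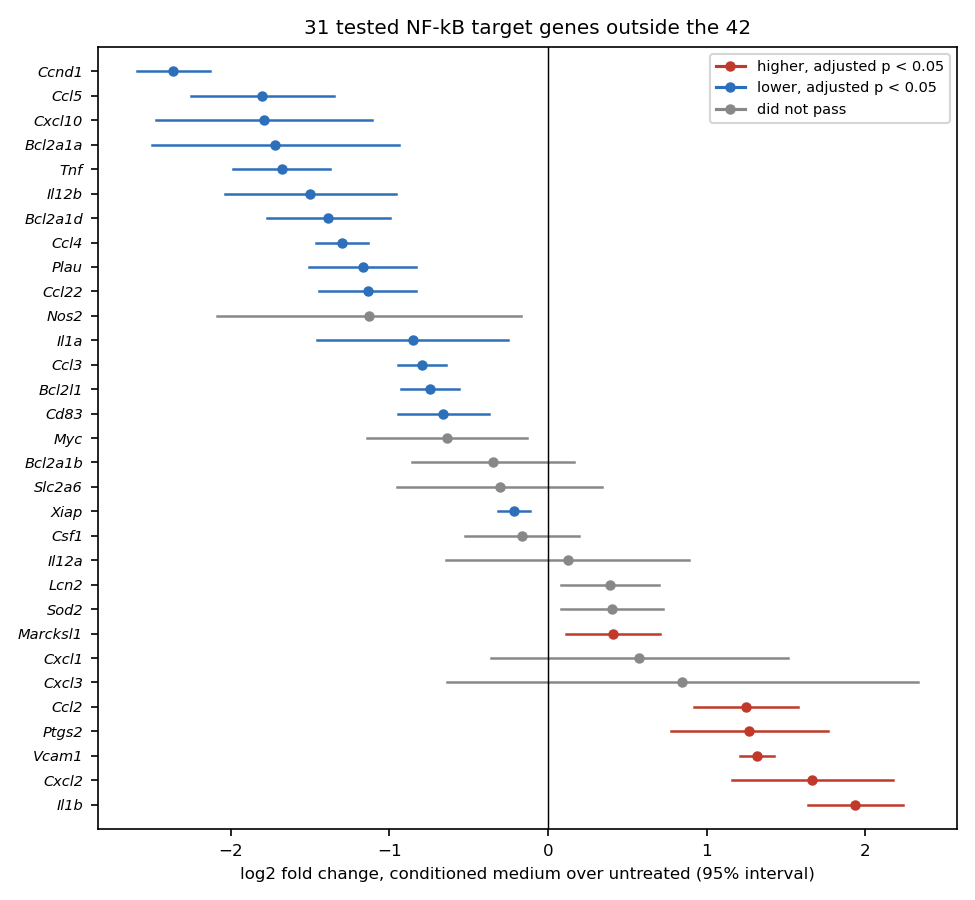
Log2 fold change, conditioned medium over untreated (x axis), with its 95% interval, of the 31 tested target genes outside the 42 (3 wells per group; red higher, blue lower, grey did not pass). Values run from -2.36 for Ccnd1 to 1.94 for Il1b.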

How the data were processed

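Messenger RNA of 6 wells was enriched with oligo(dT) beads and copied with random primers, per the labels' protocols, which describe no step that marks strand. The authors deposited raw whole-number counts for each Ensembl gene; HISAT2, featureCounts and GRCm38 are named in the submitters' processing notes, and the sources used here do not give versions, annotation release or strand setting. Symbols were matched for 55154 of 55421 genes.

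Genes were filtered with filterByExpr, scaled with TMM and tested with edgeR 4.0.16 (quasi-likelihood, Benjamini-Hochberg, threshold 0.05; glmTreat for 1.5-fold) in R 4.3.3 over 13853 genes. CPM are TMM-scaled. The 20 called genes of the 42 with the largest change are given per well, as are the first 3 called genes of each context list, except 1 that is not reported here. The genes and lists were chosen with earlier results of these data known. The fit was tested on simulated data. Deviations of same-numbered wells from their group means correlated at 0.402, 0.233 and 0.446 over genes, against -0.397 to 0.101 for others. Deviations cancel within a group, so positive values for same-numbered wells lower the others, and the contrast is partly built in. The numbers were taken to pair wells, from the data and not the labels. The main fit used the group alone, and the pairing entered only in the fit with a replicate block. Alternatives were RLE, no scaling, DESeq2 1.42.0, limma-voom (limma 3.58.1), robust dispersion, other filters, a replicate block, thinned counts, and libraries left out.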

Additional observations from a re-analysis of the deposited data

How the results depend on the processing

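Of the 22 called genes among the 42, 15 kept their call under all 16 alternatives and 7 lost it when at least 1 library was left out. With total-count scaling alone, 2 of the 42 were called beyond 1.5-fold, the median log2 fold change of the 42 was -0.0306, 2656 of all genes were higher, and the median of all genes was 0.07; uncalled genes changed sign to 0.0525 for Nfkb2, 0.000659 for Nfkbia, 0.00371 for Map3k14 and 0.0562 for Myd88. Without a filter on low counts the median of the 42 was -0.0712, Nfkb2 was 0.0117 and Myd88 0.0137. Myd88 was 0.000661 with limma-voom, 0.000519 with the replicate block and 0.0479 without both wells numbered 3, where Zc3h12a was -0.00878. With the replicate block, 8 of the 42 were higher and 16 lower, beside 36.3% of all tested genes called; Traf2 and Tnfaip2 gained a call, Gadd45b gained one beyond 1.5-fold, and no other call among the 42 changed. With single libraries left out, 5 to 9 of the 42 genes were higher, 10 to 16 lower and 2 to 5 beyond 1.5-fold. Of all genes, 1146 to 1653 were higher and 1579 to 2001 lower in these fits. The median of the 42 was -0.107 to -0.0710. The uncalled Nfkb2 ranged from -0.0383 to 0.0183, Myd88 from -0.0607 to 0.0833, Nfkbia from -0.156 to 0.0236 and Zc3h12a from -0.0105 to 0.0991. Apart from fewer samples in the fits that left out libraries, the cause was not tested. With 3 wells per group and intervals that cover at most the spread between these wells, small differences are not resolved.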

Other observations

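Receptors that start the pathway, and the ligase Peli2, were chosen from the list of 62 upstream genes after their values were seen. Of the receptors in this section, Tnfrsf1a alone was called higher, and that call depended on single libraries. The lectin receptors Clec4n and Clec4d, given above, were also higher. Cd40, the receptor for T cell help, averaged 11.9 ± 1.35 CPM in conditioned medium and 25.5 ± 3.65 CPM in untreated wells (SD, n = 3 each; log2 fold change -1.10, edgeR adjusted p = 0.000133). Tnfrsf1b, a receptor for tumour necrosis factor, averaged 850.0 ± 41.0 CPM in conditioned medium and 1157 ± 103 CPM in untreated wells (log2 fold change -0.44, edgeR adjusted p = 0.00109). Tnfrsf1a, the other receptor for this cytokine, averaged 225 ± 7.12 CPM in conditioned medium and 200 ± 7.21 CPM in untreated wells (log2 fold change 0.17, edgeR adjusted p = 0.0202), a call that was lost without conditioned-medium well 1 (0.0823) or 2 (0.0713) and without untreated well 1 (0.0823) or 2 (0.0547). Tlr9, the receptor for unmethylated DNA, averaged 128 ± 4.69 CPM in conditioned medium and 188 ± 17.6 CPM in untreated wells (log2 fold change -0.56, edgeR adjusted p = 0.000275). Tlr7, a receptor for single-stranded RNA, averaged 337 ± 21.8 CPM in conditioned medium and 333 ± 20.4 CPM in untreated wells and did not pass. Tlr2, the lipopeptide receptor, averaged 321 ± 40.3 CPM in conditioned medium and 287 ± 53.5 CPM in untreated wells, and Tlr4, the endotoxin receptor, 104 ± 7.34 CPM in conditioned medium and 93.3 ± 4.96 CPM in untreated wells. Neither passed (edgeR adjusted p = 0.387 for Tlr2 and 0.101 for Tlr4), but both passed with the replicate block (0.00566 for Tlr2 and 0.0207 for Tlr4). Tlr6, a partner of Tlr2, averaged 38.2 ± 1.65 CPM in conditioned medium and 35.8 ± 2.80 CPM in untreated wells and did not pass. Tlr1, the other partner of Tlr2, was lower, at 104 ± 5.87 CPM in conditioned medium and 138 ± 14.6 CPM in untreated wells (log2 fold change -0.41, edgeR adjusted p = 0.00305). Tnfrsf11a was also lower, at 54.0 ± 4.43 CPM in conditioned medium and 74.4 ± 3.44 CPM in untreated wells (log2 fold change -0.46, edgeR adjusted p = 0.000747). Peli2, a ubiquitin ligase of the Irak kinases, averaged 92.7 ± 4.36 CPM in conditioned medium and 56.4 ± 5.16 CPM in untreated wells (log2 fold change 0.72, edgeR adjusted p = 6.79e-05).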
